A study of Mus musculus with 12 samples.

Results

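The 10 genes that are described here are used as regulators or surface markers of blood stem and progenitor cells: Kit, Gata2, Mecom, Meis1, Hoxa9, Hlf, Procr, Cd34, Runx1 and Erg. Their open chromatin was compared in mouse bone marrow at 3 and 18 months of age. A peak was assigned to a gene when its centre lay in the gene or within 20 kb of its ends, and to the nearest of the 10 genes where windows met. That rule took 77 of the 75281 peaks in the deposited table, and used no measured value. The peaks were divided unevenly: 32 belonged to Runx1, 21 to Erg, 9 to Hoxa9, 5 to Meis1, 5 to Cd34, 3 to Kit, 1 to Gata2 and 1 to Hlf. No peak of the table lay in or within 20 kb of Mecom or Procr, so 8 of the 10 genes could be measured. Of the 77 peaks, 60 had their centre inside the gene, 7 upstream of it and 10 downstream. Exons and introns were not assigned, since the annotation used here gives gene ends and transcription starts only.

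Chromatin was profiled by ATAC-seq, in which an engineered transposase inserts sequencing adapters where nucleosomes leave DNA exposed, so that read counts over a region measure its accessibility. All mice were NZO/HILtJ, an inbred line that becomes obese and often diabetic. There were 12 libraries from 4 groups of 3: females aged 18 months (mice BM-35, BM-36 and BM-42), males aged 18 months (BM-38, BM-39 and BM-40), females aged 3 months (BM-243, BM-244 and BM-245) and males aged 3 months (BM-251, BM-252 and BM-253). No genetic change, drug or diet is named in the labels for any group. Values below are CPM, read counts scaled to a common library total and by TMM factors, which allow for differences in composition between libraries. In the order in which libraries are listed throughout, values run by rising mouse number within a group.

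The labels name bone marrow as the source of every library, while the protocol attached to them describes a sort of CD3e- and CD8-positive T cells. Peaks were found at all 10 genes of an erythroid marker list, and at 10 of 10 neutrophil and 10 of 10 B cell markers. Of 10 T cell genes, 7 had peaks, among them the sort markers Cd3e and Cd8a, and Cd8b1, Bcl11b and Themis had none. The libraries are called bone marrow here, as the labels name them. One library stood apart in the sum over neutrophil genes. Summed over the 10 markers, 3-month male BM-253 measured 831 CPM, the other 5 young mice 634 to 709 and the 18-month mice 796 to 944. The markers were not alike, since BM-253 was the lowest young library at Mpo (28.8 CPM), Elane (101.6) and Prtn3 (93.5). Total counts in peaks ranged from 7668099 to 12756647 per library. The libraries came from 6 sequencing runs and 0 of these held both ages, so age and run cannot be told apart in any comparison of the ages. In a mixed tissue, fewer cells of a type and less open chromatin per cell cannot be told apart either.

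Blood stem cells rest on a small network of transcription factors that bind each other's enhancers. RUNX1 is required for stem cells to emerge in the embryo, ERG for their maintenance, GATA2 for their number, MECOM (EVI1), MEIS1, HOXA9 and HLF for self-renewal. The receptor KIT, which binds stem cell factor, and the surface proteins CD34 and PROCR (EPCR) are used to sort the cells. Several of these genes also work outside the stem cell: Kit and Gata2 in mast cells, Runx1 in megakaryocytes, lymphocytes and myeloid cells, Erg and Procr in endothelium, and Erg in megakaryocytes.

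RefSeq lists 16 transcription starts for the 10 genes, and 6 of them lay in a peak: both starts of Kit, the start of Meis1, both starts of Runx1 and the third start of Erg. The starts of Kit, at positions 75574987 and 75574991 of chromosome 5, lay in the same peak. Starts are numbered from the 5′ side of the gene. Of all 32851 annotated starts, 40.5% lay in a peak. The starts of Gata2, Mecom, Hoxa9, Hlf, Procr and Cd34 and the first and second start of Erg lay outside peaks. The 250 bases upstream of the open starts are shown because the start peaks described below hold these starts. They are printed 5′ to 3′ in the direction of transcription from the RefSeq promoter table for GRCm38.p6, which is C57BL/6J sequence and not that of NZO. Capitals mark matches on either strand to 4 short motifs. The motif of RUNX factors was searched as TGTGGT, that of GATA factors as AGATAA, that of ETS factors as AGGAAG and the E-box as CAGNTG.
Kit start 1, chr5:75574737-75574986, plus strand: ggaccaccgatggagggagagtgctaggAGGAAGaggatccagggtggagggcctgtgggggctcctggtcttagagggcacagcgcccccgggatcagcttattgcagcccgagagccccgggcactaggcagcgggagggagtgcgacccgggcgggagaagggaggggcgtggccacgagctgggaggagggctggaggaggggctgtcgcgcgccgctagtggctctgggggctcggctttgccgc
Meis1 start, chr11:19018970-19019219, minus strand: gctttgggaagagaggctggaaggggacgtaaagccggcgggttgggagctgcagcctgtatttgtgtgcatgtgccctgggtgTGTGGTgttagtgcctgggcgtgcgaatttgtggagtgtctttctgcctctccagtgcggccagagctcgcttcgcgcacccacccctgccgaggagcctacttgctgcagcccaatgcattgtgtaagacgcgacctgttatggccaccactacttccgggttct
Runx1 start 1, chr16:92826075-92826324, minus strand: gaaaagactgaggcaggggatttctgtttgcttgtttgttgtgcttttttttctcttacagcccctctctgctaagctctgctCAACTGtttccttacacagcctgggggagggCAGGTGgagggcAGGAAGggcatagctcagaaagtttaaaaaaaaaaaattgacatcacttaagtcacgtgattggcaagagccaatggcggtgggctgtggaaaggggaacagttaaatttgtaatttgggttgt
Runx1 start 2, chr16:92697330-92697579, minus strand: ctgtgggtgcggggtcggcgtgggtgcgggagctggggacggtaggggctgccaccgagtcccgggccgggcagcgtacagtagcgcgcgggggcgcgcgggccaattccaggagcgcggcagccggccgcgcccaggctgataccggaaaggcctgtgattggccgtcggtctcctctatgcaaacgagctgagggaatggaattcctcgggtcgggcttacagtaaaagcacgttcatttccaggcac
Erg start 3, chr16:95459349-95459598, minus strand: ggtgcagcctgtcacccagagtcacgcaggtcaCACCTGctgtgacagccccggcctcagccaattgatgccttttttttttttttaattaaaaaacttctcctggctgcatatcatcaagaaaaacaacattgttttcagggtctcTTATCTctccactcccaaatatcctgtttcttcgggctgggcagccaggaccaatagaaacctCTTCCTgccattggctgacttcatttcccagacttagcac

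The pair of Runx1 windows differed in composition. The window at start 2, the proximal promoter known as P2, had 67.6% GC and 27 CpG dinucleotides, whereas that at start 1, the distal promoter known as P1, had 45.6% GC and 2 CpG. Kit was similar to Runx1 start 2 with 70.8% GC and 17 CpG, and Erg start 3 to Runx1 start 1 with 47.2% GC and 3 CpG. Meis1 lay between them with 59.6% GC and 13 CpG, and the median of all annotated starts was 52.4% GC and 6 CpG. The ETS letters occurred upstream of 6 of the 16 starts, against 29.5% of all annotated starts, and the E-box letters upstream of 5 of 16, against 44.8%. Both starts of Kit are among the 6 and share the same ETS match, so it counts double. The GATA letters occurred once, at Erg start 3 (position -103 from the start), and the RUNX letters once, at the start of Meis1 (position -166). They occur in 9.99% and 14% of all such windows. Runx1 start 1 held 2 E-box matches and 1 ETS match, and Runx1 start 2 held none of the 4 motifs.

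Levels of different genes were compared per kilobase of peak. The peak at Runx1 start 2 reached 19.2 CPM per kb and that at Runx1 start 1 reached 15.1, ahead of Meis1 (11.7), Erg start 3 (11.4) and Kit (11.1). The median was 10.5 CPM per kb for the 77 peaks and 10.2 for all peaks. In width the 77 peaks were also ordinary, with a median of 686 bp against 706 bp, and in level, with a median of 6.86 CPM against 7.0. An annotated start of any gene lay in 7 of the 77 (9.09%), against 13.4% of all tested peaks, a difference that was not tested, and 5 of the 7 held a start of one of the 10 genes.

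Between the ages, 10 of the 77 peaks passed the test, 6 higher and 4 lower at 18 months (edgeR quasi-likelihood test with sex as covariate, Benjamini-Hochberg adjusted p under 0.05 over 75164 tested peaks). That was 12.99% of the peaks, against 21.0% of all tested peaks. By direction, 7.79% were higher, against 9.43% of all peaks, and 5.19% were lower, against 11.6%. No test of these shares was made. Without 3-month male BM-253, 12 peaks passed, 8 higher and 4 lower. All 77 peaks were tested, and 15 had an unadjusted p below 0.05. The 10 peaks lay in 3 genes, with 5 in Runx1, 4 in Erg and 1 in Kit. The median log2 fold change (18 over 3 months) was 0.08 for the 77 peaks and 0.02 for all tested peaks. With libraries scaled by total counts in place of TMM factors, 8 of the peaks were higher and 3 lower, while among all called peaks the share that was higher moved from 44.9% to 62.8%. Absolute log2 fold changes of the 10 peaks ran from 0.32 to 0.74, around the median of 0.51 for all called peaks.

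**Figure D1:**
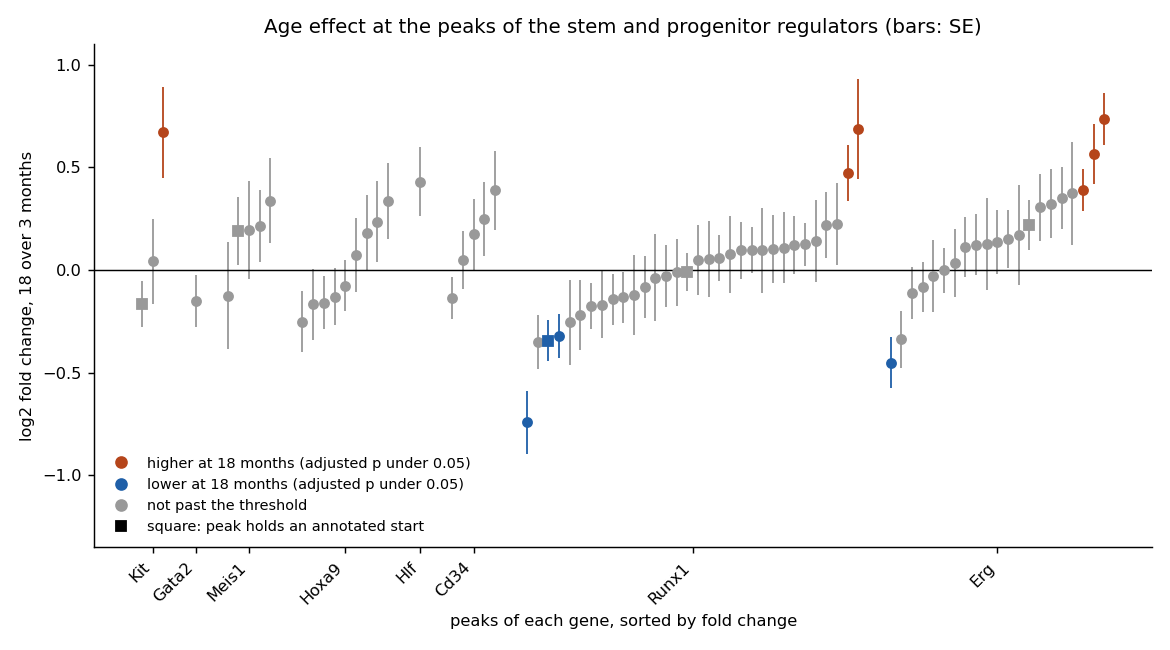
Log2 fold change of accessibility, 18 over 3 months, at each of the 77 peaks (y axis) grouped by gene and sorted within a gene (x axis). Bars are 1 SE, squares are peaks that hold an annotated start, and colour marks the 6 peaks higher and the 4 lower at 18 months. All coloured points lie in Kit, Runx1 and Erg, and Runx1 and Erg each hold peaks of both directions.

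Runx1, the transcription factor with the most peaks, had peaks that changed in both directions, while the call of its summed accessibility depended on the scaling. The counts of its 32 peaks, added up, came to 229 ± 8.84 CPM in the older and 227 ± 10.3 in the younger mice (SD, n = 6), on the scale of gene sums, where counts are scaled to the total over all genes. The log2 fold change was 0.01 (SE 0.0331, adjusted p = 0.826), whereas with offsets smoothed on abundance and on peak width the sum passed as higher (0.10 and 0.12, adjusted p = 0.0124 and 0.00413). Of the 32 peaks, 3 were lower at 18 months, one of them at the P2 promoter, and 2 were higher, both downstream of P2. The other 27 peaks had log2 fold changes from -0.35 to 0.22 and did not pass the test.

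The start 2 peak of Runx1 (chr16:92696687-92699886) was the one start peak of the 5 that passed. At 18 months it measured 60.2, 58.0 and 55.6 CPM in females and 49.2, 51.0 and 51.9 in males. At 3 months it measured 61.5, 55.8 and 83.5 CPM in females and 74.3, 56.9 and 81.2 in males. The highest 4 values were all from 3-month mice and the lowest 3 from 18-month males, but 3-month mice BM-244 and BM-252 lay within the range of the 18-month females. The log2 fold change was -0.34 (SE 0.0997, adjusted p = 0.00999). Without 3-month female BM-245, the highest library, it was -0.28 and missed the threshold (adjusted p = 0.0598).

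The start 1 peak (chr16:92824466-92828914), which was 4449 bp wide and held the highest mean of the 77 peaks, did not pass. It measured 73.0, 76.4 and 63.9 CPM in 18-month females and 67.8, 57.8 and 61.1 in 18-month males. In 3-month mice it measured 60.1, 61.7 and 63.5 CPM in females and 72.8, 64.9 and 81.2 in males. The ages overlapped throughout, and the log2 fold change was -0.01 (SE 0.0945, adjusted p = 0.955). The sign of this value depended on the scaling: it was 0.07 with total counts and 0.21 and 0.23 with offsets smoothed on abundance and on peak width, the last pair past the threshold (adjusted p = 0.0192 and 0.0286). With the same pair of offsets the start 2 peak fell short of the threshold, at -0.12 and -0.13 (adjusted p = 0.226 and 0.282).

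Because scaling moved both promoters together, their ratio within each library was taken as well, a description added after both peaks' values had been seen and given with no test. The log2 ratio of P2 over P1 was -0.28, -0.40 and -0.20 in 18-month females and -0.46, -0.18 and -0.23 in 18-month males. It was 0.03, -0.15 and 0.40 in 3-month females and 0.03, -0.19 and 0.00 in 3-month males. The peaks differ in width (3200 bp at P2 and 4449 bp at P1), so only differences between the ages are read from the ratio, and not its sign. All 6 older mice lay below 5 of the 6 younger ones, and 3-month male BM-252 lay among the older mice. The means were -0.29 ± 0.115 (SD, n = 6) and 0.02 ± 0.206 (SD, n = 6), a difference of -0.31. Leaving out any 1 library gave differences from -0.36 to -0.24. Across the 20 settings of the fit, the log2 fold change of P2 minus that of P1 ranged from -0.37 to -0.25.

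Inside Runx1, the largest fall was at a 681 bp peak 61.2 kb downstream of start 1 (chr16:92764550-92765230). It measured 5.51, 5.98 and 4.80 CPM in 18-month females and 7.14, 5.76 and 5.14 in 18-month males. The 3-month females were at 9.03, 9.08 and 13.3 CPM and the 3-month males at 11.2, 6.90 and 8.35. All but one of the younger mice were above all older ones, the exception being 3-month male BM-252, which lay just under 18-month male BM-38. The log2 fold change was -0.74 (SE 0.155, adjusted p = 0.000354). A second peak, 24.0 kb downstream of start 1 (chr16:92801505-92802556), fell from 24.4 ± 3.46 to 19.5 ± 1.00 CPM (SD, n = 6). Its log2 fold change was -0.32 (SE 0.108, adjusted p = 0.0265). The stretch downstream of P1 is known for a blood stem cell enhancer, and whether this peak is that element was not tested. Its call was lost with total counts and with offsets smoothed on abundance (adjusted p = 0.0707 and 0.0785), and without 18-month male BM-38, 3-month female BM-245 or 3-month male BM-251 (adjusted p = 0.0550, 0.0721 and 0.0562).

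The 2 Runx1 peaks that rose both lay beyond P2. The first, 76.3 kb downstream of start 2 (chr16:92620584-92621513), measured 18.4, 21.4 and 14.6 CPM in 18-month females and 15.8, 16.4 and 22.0 in 18-month males. It measured 11.6, 9.61 and 12.7 CPM in 3-month females and 11.5, 12.2 and 21.2 in 3-month males. The older mice were above 5 of the 6 younger ones, and 3-month male BM-253 stood among the older mice, as it did in the sum over neutrophil markers. The log2 fold change was 0.47 (SE 0.136, adjusted p = 0.00917), and 0.64 without that library (adjusted p = 1.14e-05). The second, 81.8 kb downstream of start 2 (chr16:92615372-92615664), rose from 2.50 ± 1.18 to 4.07 ± 0.950 CPM (SD, n = 6), a log2 fold change of 0.69 (SE 0.244, adjusted p = 0.0369). It is among the weakest peaks of the gene, and its call was lost with the abundance and width offsets (adjusted p = 0.0858 and 0.126) and without any one of 7 libraries (18-month female BM-42, 18-month males BM-39 and BM-40, 3-month females BM-243 and BM-245, 3-month males BM-251 and BM-252; adjusted p from 0.0562 to 0.129).

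By position along the gene, called peaks included, the signs were as follows, in stretches drawn after the values were seen. From 2.38 to 24.0 kb downstream of start 1, all 7 peaks had log2 fold changes below 0, from -0.35 to -0.13, and 1 of them passed the test. Between there and the region of start 2, 9 of 15 peaks were above 0, with a median of 0.06, and the 61.2 kb peak was the one call. Downstream of start 2, 6 of 7 peaks were above 0, with a median of 0.14. No test of position was run.

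**Figure D2:**
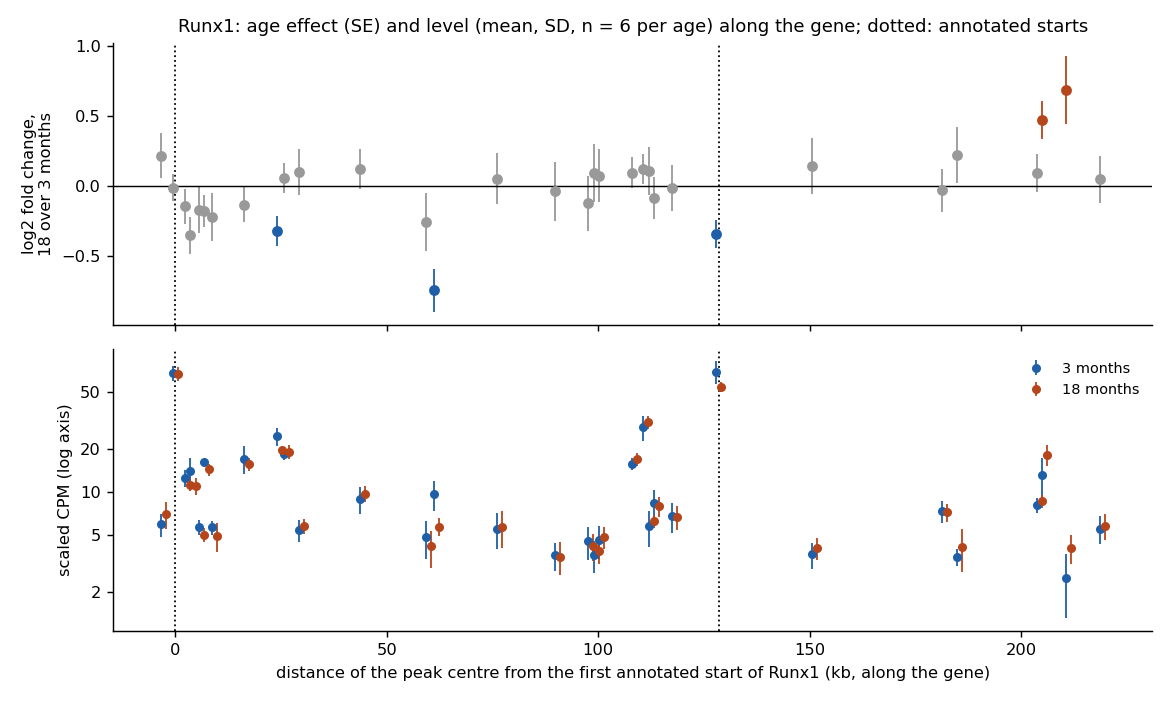
Runx1 along the direction of transcription, in kb from start 1 (x axis). Top, log2 fold change of each peak, 18 over 3 months, with 1 SE, blue for lower and red for higher at 18 months. Bottom, mean scaled CPM on a log axis with SD (n = 6 per age), the 18-month points shifted slightly to the right. Dotted lines mark starts 1 and 2, which are 128.7 kb apart, and the peaks that were lower lie at or before start 2 while the 2 that were higher lie beyond it.

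Erg, an ETS-family transcription factor, was more accessible at 18 months as a sum. The sum over its 21 peaks was 119, 111 and 119 CPM in 18-month females and 126, 122 and 127 in 18-month males. It was 111, 98.5 and 98.0 CPM in 3-month females and 106, 106 and 104 in 3-month males. The ages touched only at 18-month female BM-36 and 3-month female BM-243. It gave a log2 fold change of 0.21 (SE 0.0388, adjusted p = 0.000168), and it passed in females (0.18, adjusted p = 0.0120) and in males (0.24, adjusted p = 0.00233) taken apart. The call held in all 19 alternatives tried, with log2 fold changes from 0.20 to 0.29.

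All 21 Erg peaks lay between 5.39 kb upstream of start 3 and the end of the window, and none lay within 50 kb of start 1. Measured from start 1, start 2 lies at 56.2 kb and start 3 at 127.2 kb, and the first peak at 121.8 kb. The peak that differed most, 5.39 kb upstream of start 3 (chr16:95464259-95465226), measured 19.9, 19.6 and 17.5 CPM in 18-month females and 17.9, 14.6 and 24.1 in 18-month males. It measured 14.5, 11.5 and 10.1 CPM in 3-month females and 9.04, 11.8 and 11.3 in 3-month males. The ages did not overlap, although 18-month male BM-39 was close to 3-month female BM-243. Its log2 fold change was 0.73 (SE 0.125, adjusted p = 1.56e-05), the smallest adjusted p of the 77 peaks.

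The start 3 peak itself (chr16:95458470-95459728), whose upstream sequence with GATA and ETS letters is printed above, measured 15.4 ± 1.98 CPM at 18 months and 13.2 ± 1.97 at 3 months (SD, n = 6). By age, the log2 fold change was 0.22 (SE 0.121, adjusted p = 0.198), and the ages overlapped. Further inside the gene, a peak 8.19 kb downstream of start 3 (chr16:95450832-95451480) measured 8.34, 10.0 and 8.70 CPM in 18-month females and 8.06, 9.81 and 7.78 in 18-month males. At 3 months the values were 4.97, 5.6 and 6.43 CPM in females and 4.91, 6.90 and 6.78 in males, all below the older mice. Its log2 fold change was 0.56 (SE 0.147, adjusted p = 0.00412).

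One Erg peak fell. It lay 31.5 kb downstream of start 3 (chr16:95427173-95428622) and measured 12.1, 13.5 and 15 CPM in 18-month females and 14.3, 12.6 and 9.66 in 18-month males. In the 3-month mice it measured 16.3, 15.7 and 18.9 CPM in females and 21.7, 14.7 and 18.7 in males. Of the younger mice, 5 of 6 were above all older ones, and 3-month male BM-252 was within their range. Over both sexes, the log2 fold change was -0.45 (SE 0.122, adjusted p = 0.00567). At the far end, 9698 bp beyond the gene and 109.9 kb from start 3 (chr16:95348515-95350428), the Erg peak with the highest CPM, though not per kb (12.8 against 15.6 CPM per kb at -5.39 kb), rose from 21.2 ± 2.23 to 27.9 ± 2.72 CPM (SD, n = 6) without overlap between the ages. In the fit, the log2 fold change was 0.39 (SE 0.103, adjusted p = 0.00441).

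Only 3 of the 77 peaks separated the ages completely, all of them in Erg and all higher at 18 months: those at -5.39, 8.19 and 109.9 kb from start 3. That is 3.90% of the 77 peaks, against 7.24% of all tested peaks. The 4 Erg calls and the Runx1 calls at 61.2 and 76.3 kb held in every one of the 19 alternatives. Within 10 kb of start 3, all 6 peaks had log2 fold changes above 0 (0.11 to 0.73), and beyond that 9 of 15 did (-0.45 to 0.39). The 17 peaks of Erg that did not pass ranged from -0.34 to 0.37.

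**Figure D3:**
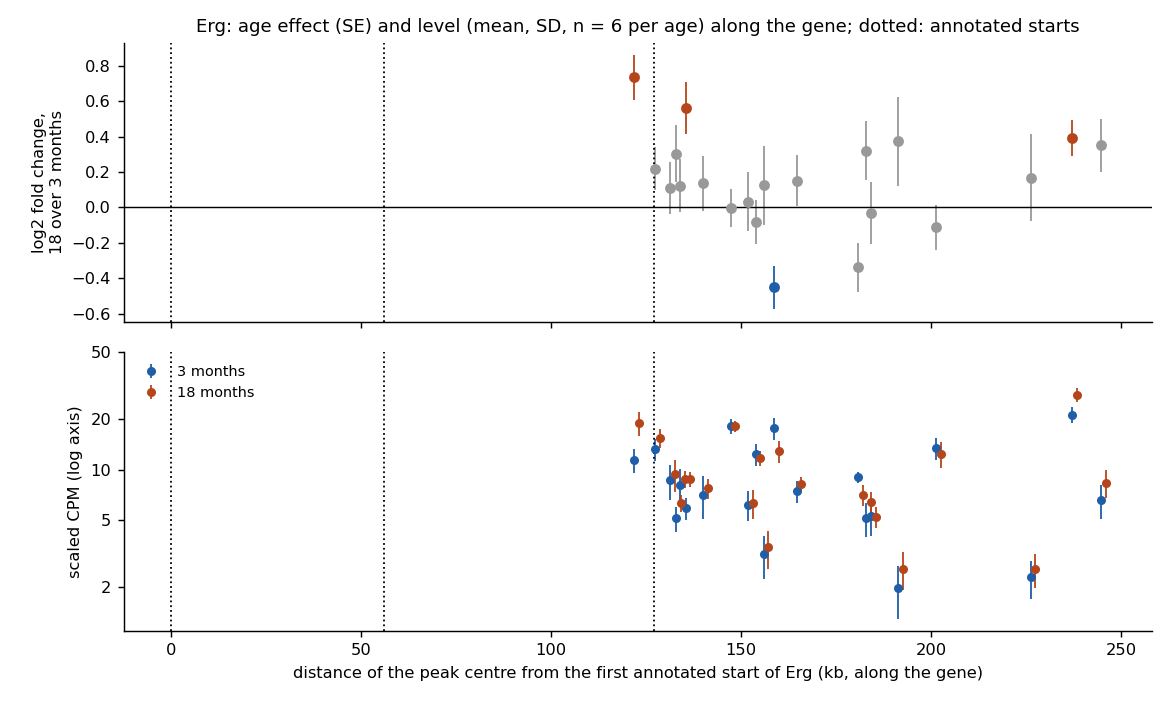
Erg along the direction of transcription, in kb from start 1 (x axis), drawn as for Runx1 with log2 fold change and SE on top and mean scaled CPM with SD (n = 6 per age, log axis) below. Dotted lines mark the 3 annotated starts at 0, 56.2 and 127.2 kb. Every peak lies from 121.8 kb onwards, the 3 peaks that were higher are at 121.8, 135.4 and 237.1 kb, and the one that was lower is at 158.7 kb.

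Kit encodes the stem cell factor receptor, and 1 of its 3 peaks passed the test, an internal one. The start peak (chr5:75574615-75576024) measured 17.4, 15.1 and 16.0 CPM in 18-month females and 15.4, 13.2 and 11.5 in 18-month males. It measured 18.1, 16.2 and 16.5 CPM in 3-month females and 16.3, 15.7 and 16.8 in 3-month males. The lowest libraries were 18-month males BM-39 and BM-40, and the log2 fold change of -0.16 (SE 0.113) did not pass (adjusted p = 0.317). A narrow peak of 257 bp inside the gene, 40.9 kb from the start (chr5:75615716-75615972), measured 4.62, 3.99 and 4.17 CPM in 18-month females and 2.93, 3.95 and 6.15 in 18-month males. At 3 months it measured 2.94, 2.22 and 2.80 CPM in females and 1.56, 2.66 and 3.86 in males. Most older mice were above the younger ones, but 18-month male BM-38 lay below 3-month female BM-243 and 3-month male BM-253. This gave a log2 fold change of 0.67 (SE 0.220, adjusted p = 0.0235). The call was lost without 18-month female BM-35 or male BM-40, or 3-month male BM-251 or female BM-244 (adjusted p from 0.0515 to 0.104), and with the abundance and width offsets (0.0561 and 0.0947). Kit's sum over 3 peaks did not pass, at 12.9 ± 1.01 and 12.4 ± 0.823 CPM (SD, n = 6), a log2 fold change of 0.07 (SE 0.0796, adjusted p = 0.516), and it turned to -0.03 with the abundance offsets.

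Of a list of mast cell and basophil genes, which share Kit and Gata2 with the progenitors, 7 of the 8 other genes had peaks. Among these, 5 were higher and 0 lower at 18 months (of all gene sums, 20.7% were higher and 22.8% lower). Their summed level ran from 151 to 167 CPM in the older and from 107 to 139 CPM in the younger mice. Hdc was by far the largest of the 7, at 93.9 ± 3.31 CPM at 18 and 67.0 ± 10.5 at 3 months (SD, n = 6). It measured 86.9 CPM in 3-month male BM-253. Without that library, 4 genes were higher and 0 lower, and the young sums ended at 128 CPM. The tryptase gene Tpsb2 had no peak. The part of this shift in the Kit result was not tested.

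**Figure D4:**
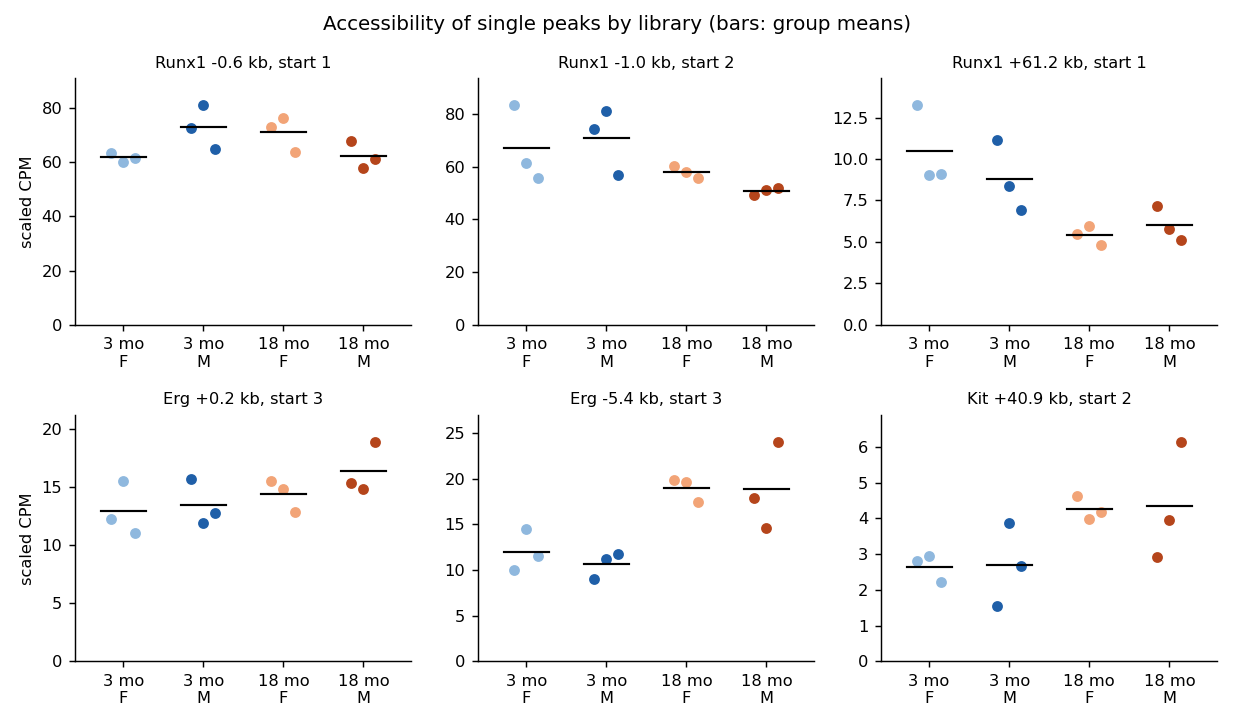
Scaled CPM (y axis, from 0) of 6 single peaks by age and sex (x axis), 1 point per library and a bar at each group's mean (n = 3). Runx1 start 1 shows no separation by age, Runx1 start 2 and the peak 61.2 kb from start 1 sit lower at 18 months, and the Erg peak 5.39 kb upstream of start 3 sits higher in all 6 older mice. The Erg start 3 peak overlaps between the ages, and the Kit peak 40.9 kb from the start overlaps at its edges.

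Meis1, a homeodomain partner of HOX proteins, passed as a sum although none of its 5 peaks passed alone. The sum measured 15.1, 11.6 and 12.4 CPM in 18-month females and 14.4, 13.8 and 14.8 in 18-month males, against 12.3, 10.7 and 11.4 in 3-month females and 10.5, 11.7 and 12.0 in 3-month males. The 18-month males were all above the 3-month mice and the 18-month females partly among them. It gave a log2 fold change of 0.26 (SE 0.0855, adjusted p = 0.0194). It missed the threshold without 18-month female BM-35 or 3-month male BM-251 (adjusted p = 0.0660 and 0.0516) and with the abundance and width offsets (0.135 and 0.0660). At its start peak (chr11:19018675-19019229) the levels were 6.92 ± 1.49 and 6.05 ± 1.27 CPM (SD, n = 6), a log2 fold change of 0.19 (SE 0.165, adjusted p = 0.450). Of the 5 peaks 4 had log2 fold changes above 0, with 0.34 as the highest (48.8 kb from the start, adjusted p = 0.257).

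Hlf, a PAR-domain transcription factor whose expression is concentrated in stem cells, had a single peak, 2.84 kb inside the gene (chr11:90387598-90388557), while its start lay outside peaks. The peak measured 7.21, 6.70 and 10.1 CPM in 18-month females and 8.88, 7.36 and 6.90 in 18-month males. At 3 months it was at 6.21, 3.80 and 4.88 CPM in females and at 4.24, 8.23 and 7.83 in males. The 3-month females lay below all older mice, and 2 of the 3-month males lay among them. In the fit over peaks the log2 fold change was 0.43 (SE 0.168, adjusted p = 0.0599). In the fit over gene sums, which holds the same counts under other scaling factors and another background, it was 0.50 (SE 0.184, adjusted p = 0.0324). The gene was therefore on either side of the threshold depending on the fit, and the gene-sum call was also lost without any one of 5 libraries (18-month female BM-42, 18-month male BM-38, 3-month females BM-244 and BM-245, 3-month male BM-251; adjusted p from 0.0649 to 0.0957).

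Gata2, Hoxa9 and Cd34 did not pass in any peak or as a sum. The single Gata2 peak lay 3971 bp upstream of the gene (chr6:88189270-88190571), in a region known for sites bound by GATA factors, and neither start of the gene was in a peak. It measured 11.2 to 12.4 CPM in 18-month females, 10.5 to 12.5 in 18-month males, 9.61 to 15.1 in 3-month females and 12.9 to 15.3 in 3-month males. The ages overlapped, with a log2 fold change of -0.15 (SE 0.126, adjusted p = 0.425).

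Hoxa9, a homeobox factor of self-renewing progenitors, sits in the densely packed HoxA cluster. Of its 9 peaks 1 was inside the gene and 4 inside the neighbouring Hoxa3, Hoxa7 or Hoxa10, and 1 more held the start of Hoxa3. Log2 fold changes ran from -0.25 to 0.34, with 4 above and 5 below 0. The peak inside the gene (chr6:52225633-52226645) measured 9.55 ± 1.84 CPM at 18 and 10.5 ± 1.45 at 3 months (SD, n = 6), a log2 fold change of -0.13 (adjusted p = 0.544). The sum was 37.0 ± 3.02 against 36.3 ± 2.45 CPM (SD, n = 6), with a log2 fold change of 0.03 (SE 0.0618, adjusted p = 0.741).

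Cd34, the gene of a sialomucin used to isolate progenitors, had 5 peaks. The one nearest the start, 0.626 kb inside the gene (chr1:194938831-194940063), measured 9.58 ± 1.87 CPM at 18 months and 9.23 ± 1.42 at 3 months (SD, n = 6; log2 fold change 0.05, adjusted p = 0.845). By far the most accessible peak of the window, 38.1 kb from the start and 15.7 kb beyond the gene (chr1:194975790-194978139), held the annotated start of the long non-coding RNA Gm16897. It measured 49.2 ± 7.19 and 54.0 ± 7.33 CPM (SD, n = 6), a log2 fold change of -0.14 (adjusted p = 0.357) whose sign turned with the abundance and width offsets (0.06 and 0.04). The Cd34 sum was 42.9 ± 2.35 against 41.7 ± 2.83 CPM (SD, n = 6), a log2 fold change of 0.04 (SE 0.0565, adjusted p = 0.588). That peak beyond the gene held more counts than the other 4 together.

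By gene, 3 of the 8 sums passed, Erg, Meis1 and Hlf, all higher at 18 months. Of all 17254 gene sums tested, 43.6% passed, with 20.7% higher and 22.8% lower, so 3 of 8 is close to the background share. The median log2 fold change was 0.05 for the 8 genes and 0.00 for all genes. Without 3-month male BM-251, Erg was the 1 gene left, and with the abundance and width offsets Runx1 passed as well while Meis1 and Hlf did not.

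**Figure D5:**
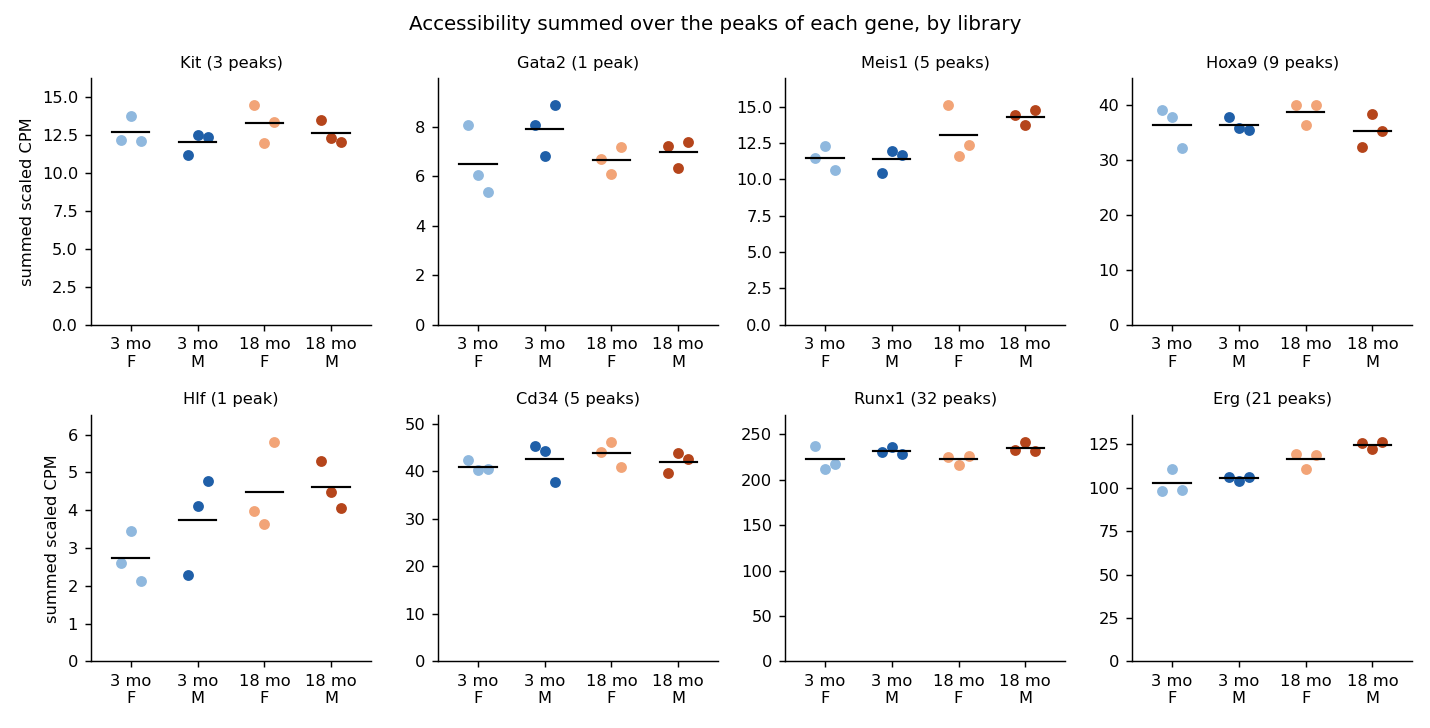
Summed scaled CPM over the peaks of each of the 8 genes with peaks (y axis, from 0) by age and sex (x axis), 1 point per library and a bar at each group's mean (n = 3). Erg is higher in both sexes at 18 months and Runx1 stays between 212 and 242 CPM in all 12 libraries. Meis1 and Hlf are shifted upwards with overlap, and Kit, Gata2, Hoxa9 and Cd34 show no separation.

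The 10 called peaks had the same sign in both sexes. Tested within females, 5 peaks passed, 4 higher and 1 lower (11.9% of all peaks passed), and 11 had an unadjusted p below 0.05. Within males, 4 passed, 2 higher and 2 lower (11.4% of all peaks), and 14 had an unadjusted p below 0.05. The Erg peak at -5.39 kb passed in both, with log2 fold changes of 0.67 in females (adjusted p = 0.00551) and 0.80 in males (adjusted p = 0.000974). The Runx1 peak at 61.2 kb passed in females (-0.94, adjusted p = 0.00134) but not in males (-0.53, adjusted p = 0.106), and the Runx1 start 2 peak passed in males (-0.48, adjusted p = 0.0107) but not in females (-0.21, adjusted p = 0.320). These counts rested on single libraries, with 2 to 6 calls in females and 1 to 9 in males when libraries were left out in turn, and 9 in males without 3-month male BM-252.

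None of these differences between the sexes was itself past the threshold. The age by sex interaction passed at 0 of the 77 peaks in edgeR (0.00532% of all peaks) and at 0 with DESeq2, with 5 peaks at an unadjusted p below 0.05 and a smallest adjusted p of 0.386. The Runx1 start 1 peak was one of those 5: its age effect was 0.20 in females and -0.23 in males, a difference of -0.43 (SE 0.173, unadjusted p = 0.0150, adjusted p = 0.386). Between males and females, 0 of the 77 peaks passed in edgeR (0.162% of all peaks) and 0 with DESeq2, with 6 at an unadjusted p below 0.05 and a smallest adjusted p of 0.472. Females and males aged 18 months were sequenced in different runs, so at that age sex cannot be told apart from run. With the run as a block, which compares the sexes only within the 2 runs that hold both (at 3 months), 0 of the 77 peaks passed, 2 had an unadjusted p below 0.05 and the smallest adjusted p was 0.753.

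Other genes of the stem and progenitor programme changed in both directions. Of a list of 50 such genes, 48 had peaks (Tek and Ndn had none), and as sums 13 were higher, 17 lower and 18 not past the threshold, against 20.7% higher and 22.8% lower among all gene sums. The list is not fully separate from the 10 genes: Hoxa10 had the same 9 peaks and values as Hoxa9, and Hoxa5 and Hoxa7 lie in the same cluster. Within the list, the neighbours Hoxb4 (3 peaks, log2 fold change 0.33) and Hoxb5 (4 peaks, 0.34) each counted as higher. The median log2 fold change was 0.01. Among 32 haematopoietic transcription factors, 9 were higher and 13 lower. Gata1, a factor of the red cell and megakaryocyte lineages, was at 14.8 ± 2.91 CPM at 18 and 22.0 ± 2.72 at 3 months (SD, n = 6), a log2 fold change of -0.58 (SE 0.0928, adjusted p = 4.54e-05). Its cofactor Zfpm1 (FOG1) followed at -0.52 (adjusted p = 4.89e-09), then Tal1 at -0.50 (4.04e-07), Gfi1b at -0.46 (4.29e-08) and the HOX cofactor gene Pbx3 at -0.41 (2.6e-05). Of these all but Gata1 separated the ages without overlap. At Gata1 the ages touched at 18-month female BM-35 (18.18 CPM) and 3-month male BM-252 (18.15 CPM), while within each sex they did not overlap.

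At the other end stood Cebpa, the granulocyte and monocyte factor, at 34.5 ± 2.67 against 25.8 ± 3.88 CPM (SD, n = 6), a log2 fold change of 0.43 (SE 0.0683, adjusted p = 4.7e-05). It was followed by the neutrophil protease gene Ctsg at 0.41 (adjusted p = 0.0244), the surface protein genes Thy1 at 0.37 (0.00497) and Ly6a (Sca-1) at 0.34 (0.000103), and Hoxb5, a marker of long-term stem cells, at 0.34 (0.000506). Hoxb5 separated the ages without overlap. Of the 15 genes with peaks on the list of receptors and surface proteins, which also holds Ctsg, 4 were higher, 4 lower and 7 not past the threshold.

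Markers of mature and other lineages were counted in the same libraries, against the 43.6% of all gene sums that passed. All 10 erythroid genes were lower at 18 months, with summed levels of 710 to 819 CPM in the older and 1077 to 1294 CPM in the younger mice. Of 10 neutrophil genes 7 were higher and 0 lower, with sums of 796 to 944 against 634 to 831 CPM. Without 3-month male BM-253, 8 were higher and the young sums ended at 709 CPM. Of 6 monocyte genes 3 were higher and 0 lower, with sums of 171 to 177 against 154 to 163 CPM. Of 10 B cell genes 1 was higher, and of 7 T cell genes with peaks 4 were higher and 1 lower, with overlapping sums in both lists. Cd3d and Cd3g, both higher, had the same 6 peaks and the same values in every library, so 1 measurement counts double there. Vpreb1 and Igll1 of the B cell list likewise had the same 4 peaks, neither past the threshold. The list sums hold such peaks more than once. Without 3-month male BM-253, 2 B cell genes were higher, and 4 T cell genes were higher and 2 lower.

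Erg and Procr are also on the endothelial list, and none of the 10 genes is on the megakaryocyte list. Of 8 endothelial genes other than Erg and Procr, 6 had peaks and 3 were higher and 0 lower, with sums of 197 to 231 CPM against 168 to 197 CPM, while Tek and Sox17 had no peak. Of 10 megakaryocyte genes 9 had peaks, 4 higher and 4 lower, with sums of 523 to 582 against 598 to 623 CPM, and Gp6 had no peak. Pf4 and Ppbp, both higher, had the same 3 peaks and the same values in every library, so they count double here. The part of these shifts in the Runx1, Erg, Meis1 and Hlf results was not tested.

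The 20 kb limit left out peaks that a wider window takes in. With 50 kb there were 96 peaks, of which 9 were called higher and 4 lower at 18 months. At 20 kb, the outermost peaks taken in were 17.3 kb beyond Erg (8.35 ± 1.56 CPM at 18 and 6.57 ± 1.5 at 3 months), 15.7 kb beyond Cd34 (given above) and 14.7 kb beyond Kit (3.37 ± 0.696 and 3.30 ± 0.367 CPM). Just outside were peaks 21.6 kb upstream of Procr (13.3 ± 2.23 and 14.8 ± 3.22 CPM), 22.4 kb downstream of Gata2 (2.47 ± 0.911 and 2.77 ± 0.659 CPM) and 24.8 kb downstream of Cd34 (6.0 ± 1.64 and 4.54 ± 1.09 CPM, each SD with n = 6).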

How the data were processed

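The authors deposited whole-number read counts for 75281 peaks in 12 libraries. The submitters' processing notes name Trimmomatic, BWA, MACS2, DiffBind, edgeR and the build mm10. The consensus rule, removal of duplicates, shift of read ends and counting settings are not given in the sources used here. The smallest deposited count was 1, and counts at the 77 peaks ran from 9 to 959. Groups, mouse numbers and runs come from the labels. Genes, starts and upstream sequences come from RefSeq tables (GRCm38.p6).

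Tested peaks had a CPM above 1 in 2 or more libraries (edgeR 4.0.16 quasi-likelihood, TMM, model of sex and age, R 4.3.3), and a model with 4 group means gave effects within a sex and the interaction. P-values were adjusted by Benjamini-Hochberg over all features. Gene sums added the counts of all peaks in a gene or within 20 kb and were fitted over 17254 protein-coding genes, so a peak can count for neighbouring genes. The method was run on simulated counts with few changed peaks and no run effect, which does not cover the coincidence of age and run here. Total counts in peaks set the depth, and 3 counts, taken as the floor, came to 0.239 to 0.376 CPM (counting error only). Over 12 pairs of replicates, chi-square per degree of freedom was 2.17 to 6.08, and 0 pairs were identical.

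Peaks were named by a rule: per gene the start or nearest peak, the most accessible peak and the one with the smallest p. The other called peaks were named after their values were seen. The 10 genes and the gene lists were chosen with earlier results of these data known. Alternatives were total counts, DESeq2 1.42.0 size factors and test, offsets smoothed on abundance or width, other filters and windows, and leaving out each library.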

Additional observations from a re-analysis of the deposited data

Results flagged for a closer look

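One value stood apart from its group. At the Runx1 peak 76.3 kb downstream of start 2, 3-month male BM-253 measured 21.18 CPM, while the next highest of the 6 libraries of that age measured 12.66, a gap of 0.737 of the whole range. Of 80 groups of 6 libraries looked at, 1 met this criterion, and chance alone marks about 1 in 20. The same library was high in the sum over neutrophil genes, with 831 CPM over 10 markers against 634 to 709 in the other 5 young mice. At Cxcr2 it measured 87.1 CPM, where the next highest young mouse measured 53.0. It was the lowest young library at 3 of the markers, Mpo (28.8 CPM), Elane (101.6) and Prtn3 (93.5). The part of these markers in the Runx1 value was not tested. Without this library the peak's log2 fold change was 0.64 (adjusted p = 1.14e-05, edgeR).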

How the results depend on the processing

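The count of called peaks ran from 8 to 11 over the scaling, test and filter alternatives and from 7 to 12 with 1 library left out, was 9 of 60 for centres inside a gene and 13 of 96 within 50 kb. For gene sums the count was 1 to 3 with 1 library left out, and 4 of 9 within 50 kb. Peaks called within females numbered 2 to 6 with 1 library left out and 7 with abundance offsets (6 higher, 1 lower). Within males, 1 to 9 peaks were called with 1 library left out and 2 with width offsets. The count for the other progenitor genes was 25 to 31 (26 to 30 with 1 library left out). Sex and interaction counts stayed at 0, for sex also with the sequencing run as a block, an alternative chosen after seeing the data. Log2 fold changes that turned sign were not past the threshold before: the Kit sum (-0.0274 with abundance offsets), the Cd34 peak at 38.1 kb (0.0627 with abundance and 0.0404 with width offsets) and the Runx1 start 1 peak (0.0678 with total counts, 0.208 with abundance and 0.226 with width offsets). With 1 library left out, the Hoxa9 sum ran from -0.0166 to 0.0696, the Cd34 peak near the start from -0.0497 to 0.135 and the Runx1 start 1 peak from -0.0607 to 0.0452. The Hlf peak passed the threshold with total counts (0.51, adjusted p = 0.0267) and without 18-month male BM-40, 3-month male BM-253 or BM-252, and so did the Cd34 peak at 23.7 kb without 3-month female BM-243 (0.55, adjusted p = 0.0433). No paired analysis was possible because the groups share no mouse number and, for the ages, no run. The calls at 40.9 kb in Kit and at 81.8 and 24.0 kb in Runx1 were kept in 13, 10 and 14 of 19 alternatives. In all these cases the cause was not tested. The marker lists were recounted without 3-month male BM-253, a choice made after seeing the data.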
